A study of Mus musculus with 4 samples.

Results

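The caveolae genes described here are 6 genes chosen by symbol from the 23946 symbols listed in each library. They are the caveolin genes *Cav1*, *Cav2*, and *Cav3* and the cavin genes *Ptrf* (cavin-1), *Sdpr* (cavin-2), and *Prkcdbp* (cavin-3). The set was built around *Cav1* because its levels were already known to differ between the libraries, so the levels below are a description and carry no test. The question asked of the data was whether the other 5 genes, called coat genes below, follow *Cav1* from tissue to tissue.

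Bulk RNA-seq was performed on CD51+;CD200+ cells, the skeletal stem/progenitor cells of the study, sorted by FACS from 4 tissues of wild-type CD-1 mice at postnatal day 3. The tissues were the posterior frontal (PF) suture, which later fuses, the sagittal (SAG) and coronal (COR) sutures, which stay patent, and the tibial growth plate (GP), the reference of the study. No animal carried a mutation or received a treatment. Each tissue is represented by 1 library made from cells of many mice, and the dissected suture tissue held the osteogenic fronts, the suture mesenchyme, the dura mater, and the periosteum.

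Caveolae are small flask-shaped pits of the plasma membrane, abundant in endothelial cells, adipocytes, and muscle, and present in cells of the skeletal lineage. Caveolins are hairpin-shaped membrane proteins that build the bulb of the pit. Cavins are cytosolic proteins that assemble into a coat around it, and EHD2, an ATPase at the neck, holds the pit at the surface. Caveolae flatten when the membrane is stretched and are rich in cholesterol. They have been linked to the entry and turnover of several receptors, Wnt receptors among them.

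Values are FPKM, fragments scaled to transcript length and sequencing depth, so levels of different genes can be compared within a library. Without replicates there is no error between animals, and no p-value is given. A difference was counted when the ratio on the log2(FPKM + 1) scale reached 3-fold, a log2 value of 1.58, in a gene that reached 1 FPKM in either library. A bulk level does not tell fewer cells expressing a gene from less RNA per cell. The PF library was the shallowest, with an estimated 44.7% of the fragments of the SAG library. *Itgav* and *Cd200*, the genes of the antigens used for sorting, were at 6.20 to 15.0 and 23.5 to 62.6 FPKM in the 4 libraries. *Ptprc*, *Tek*, and *Thy1*, whose antigens were gated out, stayed under 1 FPKM. *Enpep* and *Eng*, whose antigens were gated out as well, were at 1.39 to 7.05 and 0.679 to 1.70 FPKM.

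*Cav1*, which encodes the main structural protein of caveolae outside striated muscle, was highest in GP-CD51+;CD200+ cells and lowest in SAG-CD51+;CD200+ cells. *Cav1* was at 22.2 FPKM in PF cells, 9.12 in SAG cells, 79.4 in COR cells, and 116 in GP cells, so COR and GP stood well above both midline sutures. The GP level was 12.7-fold and the COR level 8.71-fold that of SAG. PF lay between, at 2.43-fold the SAG level, which did not reach 3-fold. On the log2(FPKM + 1) scale the ratio of COR to SAG was 2.99, that of PF to COR -1.80, that of PF to GP -2.34, and that of SAG to GP -3.53, each past 3-fold. COR and GP differed less, with a log2 ratio of -0.54. After a correction for GC content the ratio of PF to COR was below 3-fold (-1.46) and that of PF to SAG past it (1.64). *Cav1* lies on mm9 chromosome 6 from 17256335 to 17291452 on the plus strand (GENCODE M1, ENSMUSG00000007655.9).

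*Cav2*, whose protein reaches the surface in complexes with caveolin-1, differed less than *Cav1*. It was at 4.88 FPKM in PF cells, 8.23 in SAG cells, 12.0 in COR cells, and 21.5 in GP cells, so it was again highest in GP and next in COR, but its lowest level was in PF instead of SAG. Between PF and GP the log2 ratio was -1.94, the only pair past 3-fold for *Cav2*, and it fell short at -1.40 after a correction for GC content. Between COR and SAG, where *Cav1* differed most among the sutures, the log2 ratio of *Cav2* was 0.50. *Cav2* was therefore nearly as high as *Cav1* in SAG, with a *Cav1* to *Cav2* ratio of 1.11, where the PF ratio was 4.54, the COR ratio 6.61, and the GP ratio 5.40. *Cav2* (chromosome 6, 17231185 to 17239115, plus strand) ends 17219 bases before *Cav1* begins, with no coding gene between them.

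*Cav3* encodes the caveolin of skeletal and cardiac muscle and was low throughout, at 0.115 FPKM in PF cells, 2.87 in SAG cells, 1.47 in COR cells, and 1.29 in GP cells. The PF value corresponds to about 2.30 fragments by the depth estimate, so its ratios to PF rest on very few reads. *Murc*, the muscle cavin (cavin-4), was at 0.0283, 0.121, 0.688, and 1.58 FPKM in PF, SAG, COR, and GP. *Myod1* and *Pax7*, defining genes of the muscle lineage, are listed at 0 in all 4 libraries. *Des* reached 9.81 FPKM in PF and 5.60 in GP, *Mylpf* 7.68 in PF, and *Tnnt3* 6.02 in SAG, the library with the highest *Cav3*. The part of muscle cells in the *Cav3* level was not tested. Over 10 skeletal muscle genes, 4 reached 1 FPKM in any library and the summed level was 6.47 to 20.7 FPKM, highest in PF. *Des*, the largest part of the PF sum, is also counted among the smooth muscle and pericyte genes below.

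**Figure D1:**
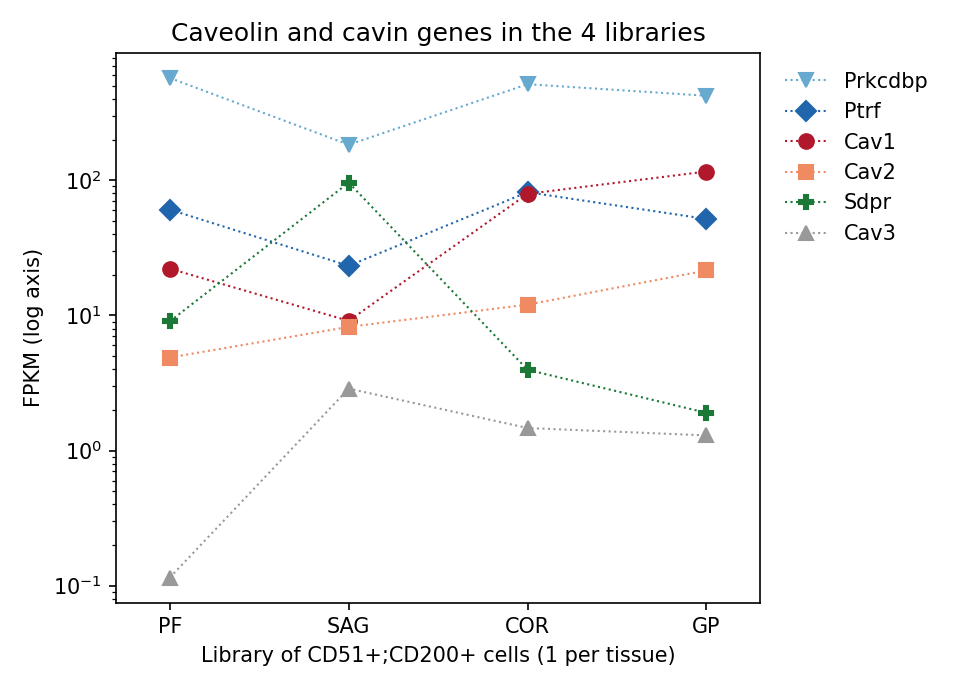
Level of each caveolin and cavin gene (vertical axis, FPKM, log axis) in the 4 libraries (horizontal axis), 1 point per library, with dotted lines joining the points of a gene. *Cav1* is at 9.12 FPKM in SAG and 116 in GP, while *Sdpr* runs the other way, from 96.1 in SAG to 1.90 in GP.

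The cavins fell into a pair of genes with like levels and 1 gene that went the other way. *Ptrf* encodes cavin-1, without which caveolae do not form. It was at 60.6 FPKM in PF cells, 23.3 in SAG cells, 81.6 in COR cells, and 51.7 in GP cells. SAG was lowest, as for *Cav1*, but PF was above GP, whereas *Cav1* was 5.24-fold higher in GP than in PF. The PF to GP ratio of *Ptrf* was small (log2 ratio 0.22) and turned to -0.17 after a correction for GC content. The COR to SAG ratio of *Ptrf* was past 3-fold (log2 ratio 1.77), and no other pair of libraries was. The same correction took it to 1.55, below the threshold. *Ptrf* is on chromosome 11, 100818047 to 100832201, minus strand.

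*Prkcdbp* encodes cavin-3, also described as a binding protein of protein kinase C delta, and was by far the most abundant transcript of the set. It was at 572 FPKM in PF cells, 183 in SAG cells, 514 in COR cells, and 422 in GP cells, so the libraries other than SAG lay close together. The PF to SAG ratio was just past 3-fold (log2 ratio 1.63), the COR to SAG ratio was below it (1.48), and PF and COR differed by 0.15. The PF to SAG call was lost with a common median ratio (a value just under the threshold), with quantile normalization (1.304), and after a correction for GC content (0.99). Within each library *Prkcdbp* stood at 6.30 to 9.43 times the *Ptrf* level. *Prkcdbp* supplied 60.5% of the summed cavin FPKM in SAG and 85.6% to 89.1% in the other libraries. Its gene spans 112629121 to 112630711 on the minus strand of chromosome 7.

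*Sdpr* encodes cavin-2, a cavin able to bend membranes, and differed against *Cav1* in all 6 pairs of libraries. It was at 9.05 FPKM in PF cells, 96.1 in SAG cells, 3.96 in COR cells, and 1.90 in GP cells, the reverse of the order of *Cav1*. The SAG level was 50.5-fold that of GP, 24.3-fold that of COR, and 10.6-fold that of PF, and each of these ratios was past 3-fold. PF was also past 3-fold above GP (log2 ratio 1.79). *Sdpr* made up 31.7% of the summed cavin FPKM in SAG, against 1.41% (PF), 0.660% (COR), and 0.398% (GP) elsewhere. In SAG it exceeded *Ptrf* with a ratio of 4.13, and in GP it was at 0.0368 of the *Ptrf* level. *Sdpr* is on chromosome 1, 51345970 to 51359803, plus strand. No exon of another annotated gene overlaps an exon of any of the 6 genes in GENCODE M1.

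The sequences just before the start of transcription are shown for the adjacent *Cav1* and *Cav2*, for *Ptrf*, lowest in SAG, and for *Sdpr*, highest in SAG. The RefSeq promoter table (GRCm38.p6, a later build than the mm9 of the gene positions above) held 5 of the 6 genes, under the later symbols *Cavin1* for *Ptrf* and *Cavin2* for *Sdpr* and without *Prkcdbp*. The 250 bases before the start are given 5′ to 3′ on the strand of the gene, at chr6:17306085-17306334 (plus) for *Cav1*, chr6:17280935-17281184 (plus) for *Cav2*, chr11:100970618-100970867 (minus) for *Ptrf*, and chr1:51288876-51289125 (plus) for *Sdpr*. Capitals mark matches on either strand to the TATA box letters TATAAA, the CCAAT box letters CCAAT, the GC box letters GGGCGG, and the AP-1 type letters TGANTCA. No match overlapped another.
Cav1: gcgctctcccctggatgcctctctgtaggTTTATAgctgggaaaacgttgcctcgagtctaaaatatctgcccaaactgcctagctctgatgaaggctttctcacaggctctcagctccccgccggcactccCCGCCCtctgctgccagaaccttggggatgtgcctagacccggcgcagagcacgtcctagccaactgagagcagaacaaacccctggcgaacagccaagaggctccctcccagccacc
Cav2: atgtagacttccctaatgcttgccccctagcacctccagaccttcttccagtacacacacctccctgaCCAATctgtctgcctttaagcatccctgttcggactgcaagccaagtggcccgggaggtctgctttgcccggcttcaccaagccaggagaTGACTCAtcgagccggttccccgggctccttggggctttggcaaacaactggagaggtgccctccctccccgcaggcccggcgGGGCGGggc
Ptrf: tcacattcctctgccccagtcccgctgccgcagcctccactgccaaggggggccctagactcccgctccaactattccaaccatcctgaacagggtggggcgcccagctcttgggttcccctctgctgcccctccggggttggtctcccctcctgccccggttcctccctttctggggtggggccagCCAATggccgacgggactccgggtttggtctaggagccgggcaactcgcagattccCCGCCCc
Sdpr: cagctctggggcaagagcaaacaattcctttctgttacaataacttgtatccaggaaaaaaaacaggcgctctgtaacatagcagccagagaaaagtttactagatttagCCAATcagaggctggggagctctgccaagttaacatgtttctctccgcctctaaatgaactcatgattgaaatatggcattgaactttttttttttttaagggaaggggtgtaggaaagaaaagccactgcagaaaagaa

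The windows of *Cav1*, *Cav2*, and *Ptrf* were rich in G and C, at 59.6%, 62.0%, and 67.6%, with 10, 10, and 12 CpG dinucleotides. The *Sdpr* window was at 40.4% with 2 CpG dinucleotides, compared with medians of 52.4% and 6 over 32851 windows. The window of *Cav3*, also highest in SAG but not shown, was at 56.0% with 4 CpG dinucleotides and held no match. GGGCGG was matched once in each of *Cav1*, *Cav2*, and *Ptrf* and is held by 32.7% of all windows. CCAAT was matched once in *Cav2*, *Ptrf*, and *Sdpr* and is held by 33.8%. TGANTCA was matched in *Cav2* (6.75% of windows) and TATAAA in *Cav1*, at -221 to -216 from the start (12.4% of windows). These are matches of letters, and binding of any factor was not measured.

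Whether the coat genes follow *Cav1* was read first from directions. The 4 libraries form 6 pairs, which share libraries and are not independent. *Cav2* differed in the direction of *Cav1* in 5 of 6 pairs, the exception being PF and SAG. *Ptrf* did so in 4 pairs, *Prkcdbp* in 3, *Cav3* in 2, and *Sdpr* in 0. After a correction for GC content *Ptrf* and *Prkcdbp* did so in 5 pairs each, as many as *Cav2*. No coat gene kept the whole order GP, COR, PF, SAG of *Cav1*. Among the 9801 other genes that reached 5 FPKM somewhere, 2.87% kept that order in all 6 pairs, 14.9% in at least 5, 36.7% in at least 4, and 3.43% in none.

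Passing 3-fold was read next. Between COR and SAG, where *Cav1* was past 3-fold, 2 of 5 coat genes were, *Ptrf* in the direction of *Cav1* and *Sdpr* against it, compared with 9.25% of all 12720 genes. Between PF and COR, again with *Cav1* past 3-fold, 0 of 5 were, compared with 11.7% of genes. Between PF and GP, *Cav2* passed with *Cav1* and *Sdpr* against it (12.0% of genes), and between SAG and GP *Sdpr* alone passed, against *Cav1* (8.66%). Between PF and SAG, where *Cav1* was not past 3-fold, *Prkcdbp* was higher in PF and *Sdpr* and *Cav3* were higher in SAG (15.7%). Between COR and GP no coat gene passed (4.40%). In one direction, the share of all genes past 3-fold was 6.64% higher in PF and 9.04% higher in SAG for that pair, 6.81% in PF and 4.87% in COR, 3.11% in COR and 6.15% in SAG, 5.72% in PF and 6.24% in GP, 4.80% in SAG and 3.86% in GP, and 1.20% in COR and 3.20% in GP for the others. The median log2 ratio of the 5 coat genes was 0.50 for COR to SAG and -0.42 for PF to COR, compared with -0.020 and 0.049 over all genes. It was -0.65 for PF to SAG, 0.22 for PF to GP, -1.12 for SAG to GP, and 0.28 for COR to GP, where the medians over all genes were 0.025, 0.027, 0.027, and 0.018.

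**Figure D2:**
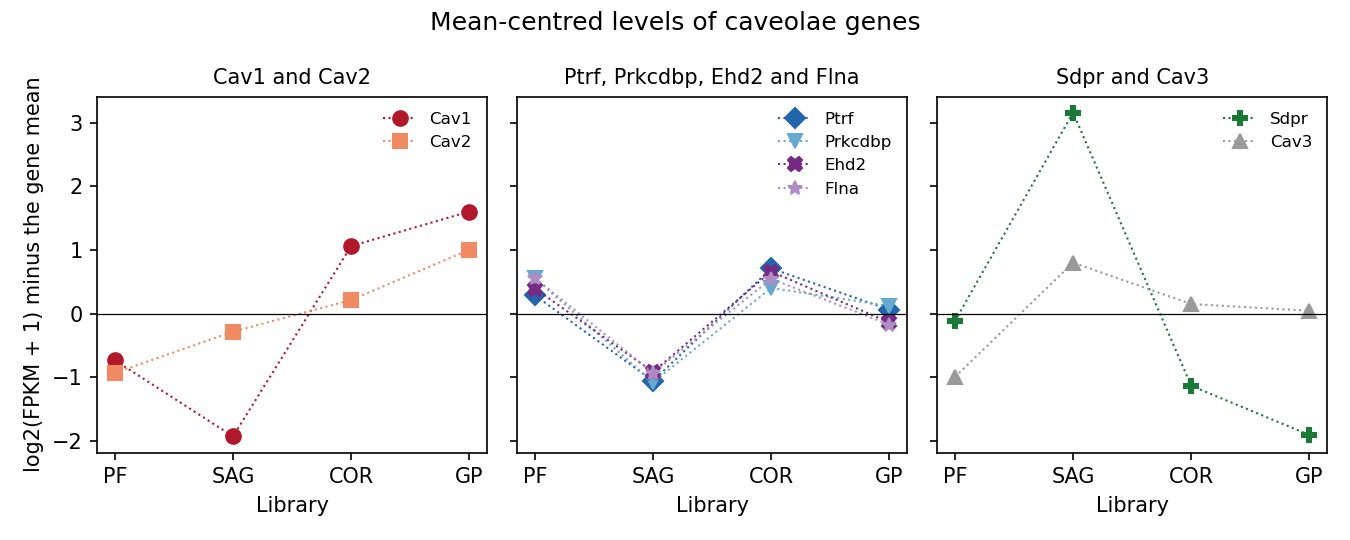
Mean-centred level, log2(FPKM + 1) minus the mean of the gene over the 4 libraries (vertical axis), by library (horizontal axis), 1 point per library. *Cav1* and *Cav2* end high in GP, *Ptrf*, *Prkcdbp*, *Ehd2*, and *Flna* share a low point in SAG, and *Sdpr* peaks in SAG at 3.16.

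Likeness was then measured as the distance between a pair of genes, the root mean square difference of their mean-centred log2(FPKM + 1) values over the 4 libraries. The distance from *Cav1* was 0.98 for *Cav2*, 1.04 for *Ptrf*, 1.12 for *Prkcdbp*, 1.64 for *Cav3*, and 3.29 for *Sdpr*. The median over the 9801 other genes was 1.45, and 5% of genes were nearer than 1.05. *Cav2* was thus the 315th nearest gene, *Ptrf* the 444th, and *Prkcdbp* the 716th, while *Sdpr* ranked 9763rd. The order of the first 3 depended on the measure: by the largest absolute difference *Prkcdbp* was among the nearest 6.07% of genes, *Ptrf* 8.04%, and *Cav2* 14.2%, and after a correction for GC content *Ptrf* was at 3.08%, *Cav2* at 3.12%, and *Prkcdbp* at 3.71%. The places of *Ptrf* and *Prkcdbp* depended on the SAG library: without it they moved from the nearest 4.53% and 7.31% of genes to 52.7% and 66.0%. That of *Cav2* moved from 3.21% to 1.57% without SAG and to 17.8% without GP. *Cav3* moved from 78.3% to 7.85% without SAG, and *Sdpr* stayed between 94.5% and 99.7% with each library left out in turn.

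**Figure D3:**
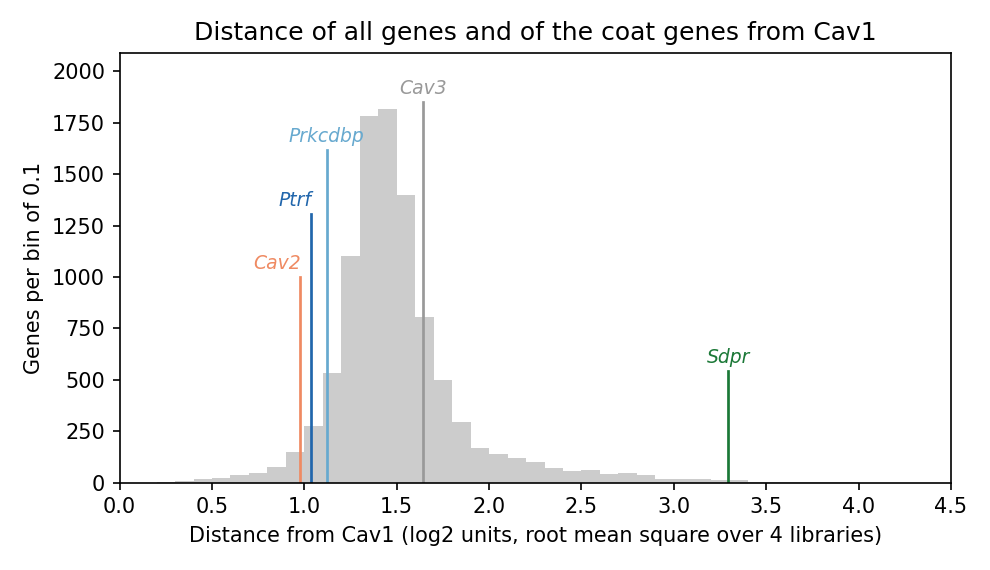
Number of genes (vertical axis, bins of 0.1) by distance from *Cav1* (horizontal axis, log2 units) for 9801 genes, with a line at each coat gene. *Cav2*, *Ptrf*, and *Prkcdbp* lie at 0.98 to 1.12, left of the median of 1.45, and *Sdpr* lies at 3.29.

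The coat genes nearest to each other were *Ptrf* and *Prkcdbp*, at a distance of 0.21. *Prkcdbp* was the 80th nearest of 9801 genes to *Ptrf*, and *Ptrf* the 104th nearest to *Prkcdbp*. *Cav1*, by comparison, was farther from *Ptrf* than 80.9% of genes were, at 1.04. *Cav1* and *Cav2*, although neighbours in the genome, were at 0.98, with *Cav1* beyond 72.9% of genes when counted from *Cav2*.

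Ratios between genes within a library do not change when a library is rescaled. The *Cav1* to *Ptrf* ratio was 0.366 in PF cells, 0.391 in SAG cells, 0.973 in COR cells, and 2.24 in GP cells. *Cav1* was thus below *Ptrf* in both midline sutures, near it in COR, and above it in GP. The *Cav1* to *Prkcdbp* ratio had the same order, at 0.0388, 0.0497, 0.154, and 0.275. The *Ptrf* to *Prkcdbp* ratio stayed within 1.50-fold over the 4 libraries, against 6.14-fold for *Cav1* to *Ptrf*. The transcripts of *Cav1* and *Ptrf* differ in GC content, 42.6% and 57.3%. After a correction for GC content the difference between PF and SAG in the log2 *Cav1* to *Ptrf* ratio changed from -0.15 to 0.81, so the likeness of the midline sutures does not hold under it. The differences of COR and GP from both midline sutures kept their sign, and the smallest of them was that of PF and COR, at -0.75 on the log2 scale.

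**Figure D4:**
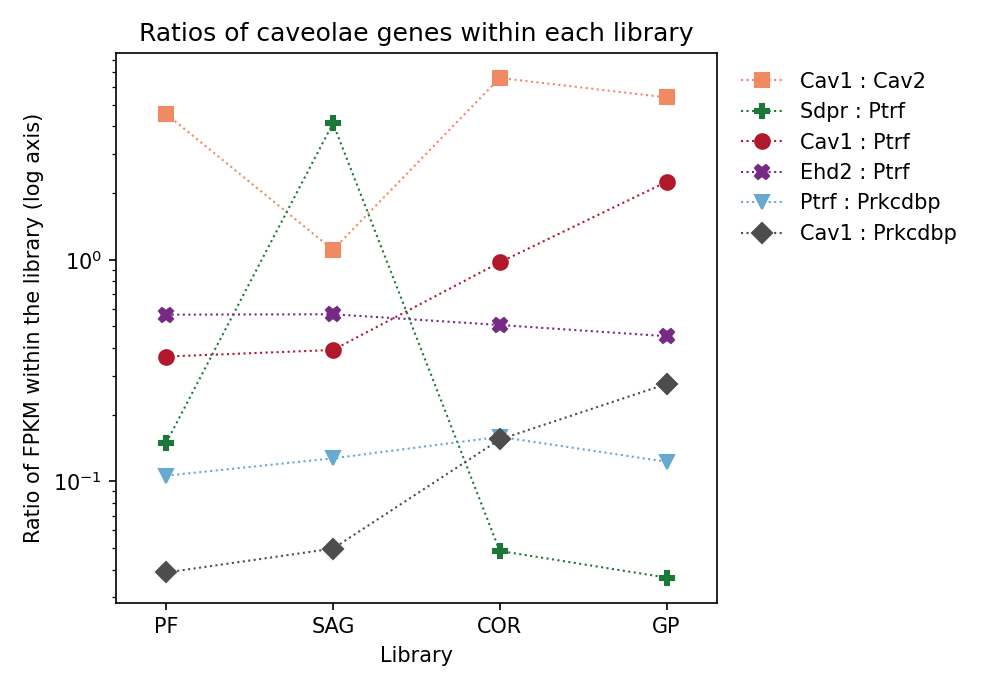
Ratio of FPKM between a pair of genes in the same library (vertical axis, log axis), by library (horizontal axis), 1 point per library. *Cav1* to *Ptrf* runs from 0.366 in PF to 2.24 in GP, *Ehd2* to *Ptrf* stays between 0.452 and 0.567, and *Sdpr* to *Ptrf* peaks at 4.13 in SAG.

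Accessory proteins of caveolae were taken from a list of 13 genes, all of which reached 1 FPKM in at least 1 library. *Ehd2*, the ATPase of the caveolar neck, was at 34.2 FPKM in PF cells, 13.2 in SAG cells, 41.4 in COR cells, and 23.4 in GP cells, the order of *Ptrf*. It was the 21st nearest gene to *Ptrf*, and the *Ehd2* to *Ptrf* ratio was 0.452 to 0.567 in all 4 libraries. *Flna*, the actin crosslinker filamin A that ties caveolae to stress fibres, was at 59.2, 20.5, 58.8, and 35.3 FPKM in PF, SAG, COR, and GP and ranked 82nd from *Ptrf*. Its level in SAG was likewise the lowest of the 4 libraries, as it was for 29.9% of the 9801 genes compared with *Cav1*.

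The related ATPases did not share one pattern. *Ehd1*, an ATPase of endosomal recycling, was highest in PF at 87.0 FPKM and was at 39.9, 33.5, and 25.03 in SAG, COR, and GP. *Ehd3*, also of endosomes, was at 7.54, 4.91, 13.7, and 7.49 FPKM in PF, SAG, COR, and GP. *Ehd4* was at 10.8, 7.60, 12.5, and 14.6 FPKM and was the one gene of the list in the direction of *Cav1* in all 6 pairs.

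Membrane-bending and scission proteins were mixed. *Pacsin2*, an F-BAR protein of caveolae, was at 24.7 to 27.0 FPKM in all libraries, and *Pacsin3* at 12.4 to 16.2. *Pacsin1*, the neuronal member, was at 0.0289 FPKM in PF and 1.43 to 2.93 in the others. *Dnm2*, the dynamin of most cells, was at 16.5 FPKM in PF and 26.1 to 40.8 elsewhere, and *Dnm1* at 16.9 to 37.0. *Dnm3* was highest in PF, at 5.47 FPKM, against 0.785 to 2.45. *Ror1*, a receptor tyrosine kinase described as a scaffold for caveolin-1 and cavin-1, was at 1.63 to 4.25 FPKM, and *Nostrin*, a trafficking protein of endothelial nitric oxide synthase, at 0.0447 to 2.13. Between COR and SAG, 0 of the 12 accessory genes compared passed 3-fold, compared with 9.25% of all genes. *Ehd2* fell just short, with a log2 ratio of 1.577 against the threshold of 1.585, and was 3.13-fold higher in COR by FPKM. The median log2 ratio of the list was 0.39. Between PF and SAG 2 of 12 passed 3-fold, *Dnm3* up and *Pacsin1* down in PF, compared with 15.7%.

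Flotillins mark membrane domains that do not need caveolins. *Flot1* was at 31.5 to 52.3 FPKM and *Flot2* at 27.3 to 43.6, both lowest in SAG and highest in COR. *Stom* was at 28.9 FPKM in PF and 6.85 in COR, *Stoml2*, a mitochondrial relative, at 60.2 to 80.9 over the libraries, and *Stoml3* at 0.126 in SAG and listed at 0 in the others. Of the tyrosine kinases that phosphorylate caveolin-1, *Fyn* was at 19.7 FPKM in PF cells, 20.7 in SAG cells, 69.1 in COR cells, and 30.5 in GP cells, past 3-fold between COR and both other sutures. *Src* was at 3.13 to 6.31 FPKM, *Yes1* at 4.27 to 10.4, and *Abl1* at 5.45 to 9.75.

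The clathrin coat serves the main other route of endocytosis. Of 13 clathrin and adaptor genes, 0 passed 3-fold between COR and SAG (9.25% of all genes) and 1 passed between PF and SAG (15.7%), *Cltb*, a clathrin light chain, at 96.0 FPKM in PF and 27.9 in SAG. *Cltc*, the heavy chain, was at 23.2 to 44.7 FPKM, *Clta*, the other light chain, at 133 to 203, and *Ap2a2*, an adaptor subunit, at 21.0 to 37.1. The median log2 ratio of the list was 0.40 for COR to SAG, compared with 0.50 for the caveolae coat genes.

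Cholesterol is needed for caveolae, and 18 genes of its synthesis and uptake were listed. Of the 16 at 5 FPKM or more in at least 1 library, 14 were lowest in PF, compared with 34.3% of all genes at that level. *Cav2* shared that low point. The median log2 ratio of the list was -0.93 for PF to COR and -0.41 for PF to SAG. Lower in PF than in each other library, past 3-fold, was *Insig1*, a sterol sensor, at 5.42 FPKM in PF and 39.0 to 47.4 in the others. *Fdps* was at 56.4 FPKM in PF cells, 66.6 in SAG cells, 159 in COR cells, and 117 in GP cells, *Lss* at 4.65 to 8.82, and *Srebf2*, a factor that activates these genes, at 15.4 to 28.3.

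Genes around *Cav1* on chromosome 6 were compared, since *Cav1* and *Cav2* lie side by side. *Met*, the next coding gene after *Cav1* at 122.3 kb, was at 1.31 FPKM in PF cells, 0.227 in SAG cells, 0.227 in COR cells, and 2.24 in GP cells, so it was low in COR, where *Cav1* was high. *Capza2*, an actin capping subunit 294.8 kb away, was at 61.1, 92.6, 109, and 130 FPKM in PF, SAG, COR, and GP, the order of *Cav2*. *Tes* was at 7.30 to 10.02 FPKM, *St7* at 18.4 to 30.6, and *Mdfic* at 4.14 to 7.70. *Wnt2* reached 1.26 FPKM in GP, *Tfec* was at most at 0.767, *Cftr* at most at 0.0169, and *Asz1* is listed at 0 in all 4 libraries. Of the 5 neighbours compared between COR and SAG, *Cav2* included, 0 passed 3-fold, compared with 9.25% of all genes.

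The 10 genes nearest to *Cav1* over the 4 libraries were at distances of 0.22 to 0.39. The nearest was *Aspn*, which encodes the small leucine-rich proteoglycan asporin, at 222 FPKM in PF cells, 126 in SAG cells, 1115 in COR cells, and 1166 in GP cells. *Igsf10* and *Sema3d*, a secreted semaphorin, came next, followed by *Spp1*, which encodes the bone matrix protein osteopontin, at 1649, 617, 8324, and 6882 FPKM. *S100a6*, *Col5a3*, *Ly6c1*, *Ccnd1*, *Glipr1*, and *Wif1* completed the list. *Ccnd1*, the cyclin D1 gene, was at 17.3 FPKM in PF cells, 4.37 in SAG cells, 41.4 in COR cells, and 43.3 in GP cells, and *Wif1*, a secreted Wnt inhibitor, at 64.6, 42.1, 203, and 234 FPKM. No coat gene was among them. Nearest to *Ptrf* were *Lrrc59*, *Sec24d*, *B3gnt9*, *Pawr*, and *Ak1*, at distances of 0.031 to 0.078. *Sec24d*, of the coat of vesicles leaving the endoplasmic reticulum, was at 81.0, 34.9, 114, and 72.9 FPKM in PF, SAG, COR, and GP.

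The genes nearest to *Sdpr* were looked up after its values were seen. They were *Rgs13*, *Rdh5*, *Cplx3*, *1110017D15Rik*, and *Tph1*, at distances of 0.083 to 0.24. *Rdh5*, a retinol dehydrogenase of the visual cycle, was at 17.5 FPKM in PF cells, 180 in SAG cells, 9.63 in COR cells, and 5.14 in GP cells. *Tph1*, which makes the serotonin precursor in the pineal gland and elsewhere, was at 4.27, 50.7, 0.763, and 0.513 FPKM likewise. Both were high in SAG alone.

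Markers of other cell types moved with some of these levels. Of 10 choroid plexus and neural genes, 7 reached 1 FPKM in at least 1 library, and their summed level was 485 FPKM in PF cells, 5350 in SAG cells, 157 in COR cells, and 13.3 in GP cells, the order of *Sdpr*. *Ttr* alone was at 5103 FPKM in SAG. The neural genes of the list were mixed. *Tubb3* was highest in COR at 10.2 FPKM, *Snap25* in SAG at 2.21, *Stmn2* in GP at 0.965, and *Elavl3* in PF at 0.381. The part of choroid plexus and neural cells in the *Sdpr* level was not tested. The 8 osteoblast lineage genes summed to 2731 FPKM in PF cells, 887 in SAG cells, 11851 in COR cells, and 8184 in GP cells. *Spp1* was the largest part of each sum, at 1649, 617, 8324, and 6882 FPKM. *Sp7*, an osteoblast transcription factor, was at 33.8, 7.93, 199.9, and 47.3. *Alpl* (461 and 258 FPKM), *Bglap* (426 and 159), and *Runx2* (18.9 and 18.1) were higher in PF than in GP, against *Cav1*. *Sp7*, *Spp1*, *Ibsp*, *Dmp1*, and *Phex* were higher in GP. The part of osteoblast lineage cells in the *Cav1* level was not tested. The 8 chondrocyte genes summed to 136, 4715, 132, and 3070 FPKM, high in SAG and in GP, the libraries with the lowest and the highest *Cav1*.

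Cell types rich in caveolae were also checked. The 9 smooth muscle and pericyte genes summed to 857 (PF), 62.9 (SAG), 324 (COR), and 647 FPKM (GP). *Acta2* was at 530.4, 38.9, 232, and 400.2 in the same order. *Cav1*, *Ptrf*, and *Prkcdbp* were likewise lowest in SAG, as were 29.9% of the 9801 other genes that reached 5 FPKM somewhere. The part of smooth muscle cells and pericytes in the levels of *Cav1*, *Ptrf*, and *Prkcdbp* was not tested. The 12 endothelial genes summed to 13.5 to 52.9 FPKM, and the sum was lowest in COR, where *Cav1* was high. The single genes were mixed. Only *Pecam1* and *Flt1* had their lowest level in COR. *Kdr* and *Egfl7* were lowest in GP and *Esam* in SAG, while *Cldn5* was highest in COR. Of these 12 genes 7 reached 1 FPKM in at least 1 library, among them *Kdr* at 14.9 in SAG, *Esam* at 29.5 and *Egfl7* at 16.1 in PF, *Plvap* at 3.58 in GP, and *Cdh5* and *Flt1* at 1.68 and 1.48 in PF. *Pecam1* and *Tie1* were at most at 0.295 and 0.155 FPKM. The part of endothelial cells in the levels of the caveolae genes was not tested. Of 8 adipocyte genes, *Fabp4* was at 14.9 FPKM in GP and *Adipoq* at 1.55. *Lep* was at 2.43 FPKM in PF and is listed at 0 in COR and GP. *Pparg* was at 0.979 in SAG and 0.919 in GP, and *Cidec*, *Cfd*, and *Retn* are listed at 0 in every library. The part of adipocytes in these levels was not tested either. The 8 leukocyte and red cell genes summed to 49.9 FPKM in PF and 7.13 to 12.6 in the others, with *Lyz2* at 30.2 in PF.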

How the data were processed

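Per the labels and the paper's methods, cDNA of double-sorted cells was amplified with a low-input kit and sequenced in paired-end mode. The authors mapped reads to mouse mm9 with STAR 2.5.1b and ran Cuffdiff (Cufflinks 2.2.1) with the Illumina iGenomes gene model. FPKM for each symbol were deposited, and how Cuffdiff scaled the libraries is not given in the sources used here. All 4 libraries were grouped by their labelled tissue. The members and lists were chosen with earlier results of these data known.

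From the FPKM, log2(FPKM + 1) ratios, the 3-fold call, ratios within a library, and distances of mean-centred values were computed. Levels of genes are as listed, and folds in the text are ratios of FPKM without a pseudocount. The number of fragments is not given, so no counting interval is printed. Relative depth was taken from the smallest common step of FPKM multiplied by transcript length in kilobases, 0.0580 (PF), 0.0259 (SAG), 0.0291 (COR), 0.0308 (GP). Lengths and GC content are of the longest coding transcript in GENCODE M1 (mm9), and positions are of the whole gene in the same annotation. Genes named are the 6 members and *Murc*, all of the accessory, flotillin, kinase, neighbour, and sorting lists, up to 4 of each other list farthest apart between COR and SAG among those reaching 5 FPKM, the 10 genes nearest to *Cav1*, and the 5 nearest to *Ptrf*. *Insig1*, the defining markers of other cell types, the osteoblast lineage genes beyond that rule, and the genes nearest to *Sdpr* were added after their values were seen.

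The alternatives were a pseudocount of 0.1 or none, quantile normalization, scaling to a common median ratio, values relative to 10 reference genes, a lowess correction for GC content (span 0.3), a 2-fold threshold, other filters, the largest absolute difference as distance, and leaving out each library. On simulated data, of 200 genes changed 4-fold in a copy of COR, 200 were recovered among 11402 genes, and 0 unchanged genes were called. The copy carried no noise and the changed genes were well expressed, so this outcome was fixed in advance. It checks the calculation only and gives no error rate between libraries. Tools were numpy 2.4.6, pandas 2.3.3, statsmodels 0.14.6, and matplotlib 3.10.9 under Python 3.11.15.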

Additional observations from a re-analysis of the deposited data

How the results depend on the processing

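No paired analysis was possible because a tissue holds a single library. The *Cav1* ratios kept their direction under each alternative run, from 2.94 to 3.28 for COR to SAG and from -3.77 to -3.51 for SAG to GP. After the GC correction PF to COR fell below 3-fold (-1.46), and PF to SAG passed it (1.64), as it did relative to the reference genes (1.65). The scaling to reference genes moved the median of all genes to 0.48 for PF to SAG. The number of coat genes past 3-fold was 1 for COR to SAG and 1 for PF to GP after the GC correction. For PF to COR it was 1 with a pseudocount of 0.1, 1 with none, and 3 at 2-fold, where 29.4% of all genes passed, and for SAG to GP it was 4 at 2-fold (18.0% of genes). The GC correction reversed PF to COR and PF to GP of *Prkcdbp* (-0.24 and -0.084) and PF to GP of *Ptrf* (-0.17), and *Ptrf* and *Prkcdbp* then followed *Cav1* in 5 pairs each. The *Cav1* to *Ptrf* difference between PF and SAG, an alternative chosen after seeing the data, became 0.056 with quantile normalization and 0.81 after the GC correction. As a largest absolute difference the distance from *Cav1* was 1.48 for *Prkcdbp*, 1.54 for *Ptrf*, 1.65 for *Cav2*, 2.73 for *Cav3*, and 5.09 for *Sdpr*, so that *Cav2* was no longer the nearest. Without 1 library the root mean square distance was 0.27 to 1.12 for *Cav2*, 0.53 to 1.89 for *Cav3*, 0.61 to 1.17 for *Ptrf*, 0.83 to 1.22 for *Prkcdbp*, and 1.72 to 3.78 for *Sdpr*. Of 180 other member ratios recomputed, 165 kept their direction and their side of 3-fold. The share of all genes past 3-fold was 8.76% to 27.4% for PF to SAG, 5.88% to 22.8% for PF to COR, 4.92% to 15.8% for COR to SAG, 5.65% to 22.4% for PF to GP, 4.67% to 14.8% for SAG to GP, and 2.24% to 8.26% for COR to GP, lowest with filters that change the genes counted and highest with a pseudocount of 0.1. Apart from those filters, the cause of these changes was not tested. Low depth limits the PF values of *Cav3* and *Murc*.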
